A study of Mus musculus with 12 samples.

Results

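Prostaglandins, thromboxane and leukotrienes are short-lived lipid signals that cells make on demand from arachidonic acid. A cytosolic phospholipase frees arachidonic acid from membranes, cyclooxygenases turn it into the common prostaglandin precursor, and a separate terminal synthase then makes each prostanoid. In the other branch the lipoxygenase encoded by *Alox5*, helped by the membrane protein encoded by *Alox5ap*, makes an unstable leukotriene precursor that *Lta4h* and *Ltc4s* products carry on to leukotriene B4 or leukotriene C4. Macrophages are a known source of both kinds of lipid.

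The genes described here are 10 enzymes and helper proteins of these branches, chosen by name for their function: *Pla2g4a*, *Ptgs1*, *Ptgs2*, *Ptges*, *Tbxas1*, *Hpgds*, *Alox5*, *Alox5ap*, *Lta4h* and *Ltc4s*. Of these 10, 9 matched a row among the 13232 genes of the table, and the signal of *Ptgs2*, the inducible cyclooxygenase, was not analysed here (only its promoter was read). RNA was measured in bone marrow-derived macrophages, which are grown out of marrow with the growth factor M-CSF, so the other cells of the marrow are mostly lost. The donors were wild type C57B6/J mice fed either normal diet, here ND, or high-fat diet, here HFD. All cultures had 20 ng/ml of M-CSF, changed to a serum-free macrophage medium on day 4, and the libraries compared here, 3 ND and 3 HFD, spent 1 h at 1% oxygen on day 7. The 6 libraries at normal oxygen were not analysed here, so nothing below concerns the response to low oxygen. The age and sex of the mice, the length of the diet and whether each library came from a separate mouse are not given in the sources used here, so p-values measure the spread between libraries, which may be partly technical.

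Values are normalized signals, gene counts that the authors divided by a factor per library. The libraries held an estimated 19046000 to 24491000 reads. ND replicate 3 stood apart from its group: on the first principal component of 10794 genes, which carried 43.3% of the variance, it scored 3.43 against -14.0 and -13.5 for the other ND libraries, and HFD replicate 1 (1.33) lay beside it, below the other HFD libraries (11.3 and 11.4). The macrophage markers fixed for this work were all present (9 of 9). Their summed signal ran from 365500 to 419100 in ND and from 363000 to 423200 in HFD, with *Adgre1* higher and *Cd14* lower in HFD without overlap. Fold changes are HFD minus ND on the log2(signal + 1) scale, which understates changes of low genes, and no gene of the table passed a limma adjusted p of 0.05 (0 of 13232, while 1401, or 10.6%, had an unadjusted p under 0.05).

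None of the 9 synthesis genes passed that threshold either, against 0% of all genes, and 1 of the 9, *Tbxas1*, had an unadjusted p under 0.05, against 10.6% of all genes. Which gene this was depended on how limma modelled the spread. Without the trend of variance with mean, the unadjusted limma p was 0.0536 for *Tbxas1* and 0.0280 for *Alox5*. That was again 1 of the 9, against 9.5% of all genes. The diets did not overlap for 2 of the 9, *Tbxas1* (higher in HFD) and *Alox5* (lower in HFD), against 14.5% of all genes, and shares of this size among 9 genes lie close to the background. The log2 fold changes ran from -0.34 for *Ltc4s* to 0.39 for *Ptges*, with a median of 0.062, beside -0.0034 for all genes. The median absolute log2 fold change was 0.134 for the 9 genes and 0.0921 for all genes. Without ND replicate 3, *Tbxas1*, *Hpgds* and *Ptges* had an unadjusted p under 0.05, against 17.5% of all genes, and 0 of the 9 passed the adjusted threshold, against 1.76%. None of the 9 had one under 0.05 without ND replicate 1, HFD replicate 2 or HFD replicate 3, when the count over all 13232 genes was 700, 726 and 1213. With limma array weights, which weight the libraries by their spread, *Tbxas1* alone of the 9 passed the adjusted threshold, against 8.56% of all genes, and 3 of the 9 had an unadjusted p under 0.05, against 27.6%.

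**Figure D1:**
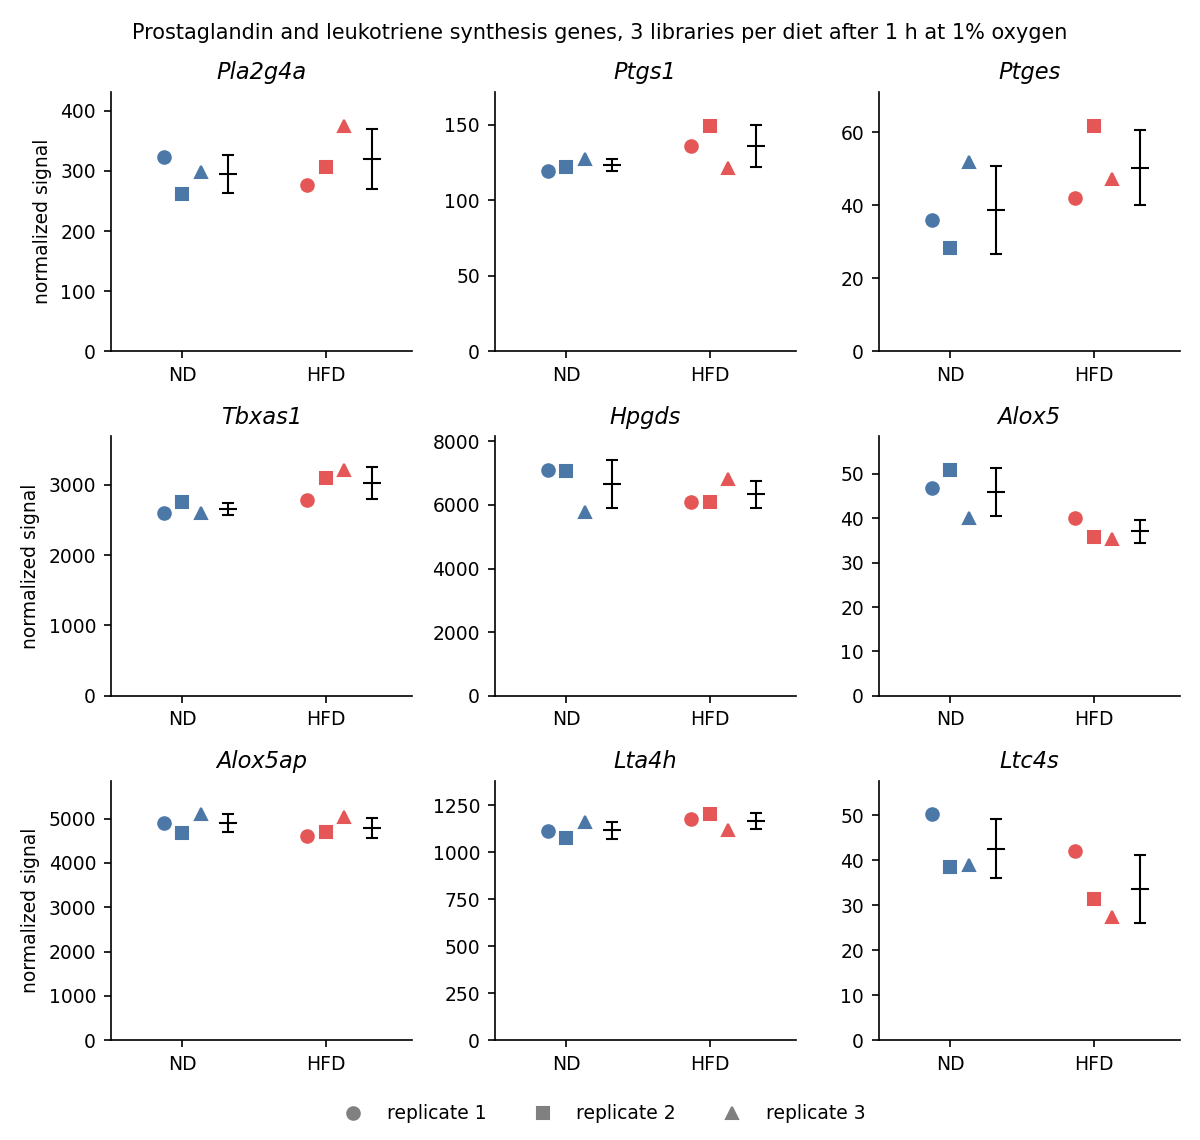
Normalized signal (linear axes from 0) of the 9 synthesis genes in each library after 1 h at 1% oxygen. Blue marks are ND, red marks HFD, marker shapes are replicate numbers, and the black bar is the mean ± SD of 3 libraries. Only *Tbxas1* and *Alox5* have diets that do not overlap, the latter by 0.0161 units of signal.

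Promoter sequences are shown for *Tbxas1* and *Alox5*, whose diets did not overlap, and for *Hpgds* and *Ptgs1*, as examples of the same motif before the start in other prostanoid genes. They come from RefSeq's annotation of GRCm38.p6 (mm10, the build in the submitters' processing notes) and cover 250 bases before to 50 after the transcript start, on the gene's strand. Capitals mark GAGGAA or its reverse complement TTCCTC, the core bound by the myeloid factor PU.1, and the GC box GGGCGG or its reverse complement. These capitals do not overlap one another in the windows shown.
*Tbxas1*, chr6:38918736-38919035, plus strand: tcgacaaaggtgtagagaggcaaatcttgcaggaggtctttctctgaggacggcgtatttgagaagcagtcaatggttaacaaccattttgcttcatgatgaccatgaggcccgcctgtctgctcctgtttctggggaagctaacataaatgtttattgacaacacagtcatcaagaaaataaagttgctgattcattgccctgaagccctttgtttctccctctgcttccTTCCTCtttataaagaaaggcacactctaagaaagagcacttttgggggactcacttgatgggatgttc
*Hpgds*, chr6:65144681-65144980, minus strand: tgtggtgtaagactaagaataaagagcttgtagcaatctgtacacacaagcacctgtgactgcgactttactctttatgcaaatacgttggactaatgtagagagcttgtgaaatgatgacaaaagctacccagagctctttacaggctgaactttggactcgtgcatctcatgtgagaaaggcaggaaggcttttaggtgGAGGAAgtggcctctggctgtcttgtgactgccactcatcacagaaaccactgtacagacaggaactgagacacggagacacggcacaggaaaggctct
*Ptgs1*, chr2:36230176-36230475, plus strand: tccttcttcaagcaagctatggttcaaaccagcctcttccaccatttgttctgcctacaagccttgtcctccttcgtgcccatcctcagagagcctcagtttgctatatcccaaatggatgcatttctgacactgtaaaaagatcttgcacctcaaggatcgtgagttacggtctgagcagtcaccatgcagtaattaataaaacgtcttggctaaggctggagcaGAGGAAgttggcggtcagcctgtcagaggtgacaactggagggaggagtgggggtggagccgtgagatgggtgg
*Alox5*, chr6:116461129-116461428, minus strand: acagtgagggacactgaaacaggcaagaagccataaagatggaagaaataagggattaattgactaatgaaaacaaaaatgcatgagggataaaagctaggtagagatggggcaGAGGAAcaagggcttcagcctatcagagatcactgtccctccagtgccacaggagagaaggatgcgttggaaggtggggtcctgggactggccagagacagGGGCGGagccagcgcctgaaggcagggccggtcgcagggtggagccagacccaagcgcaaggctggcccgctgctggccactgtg
The GAGGAA core began 19 bases before the start in *Tbxas1*, 24 bases before it in *Ptgs1* and 49 bases before it in *Hpgds*. In *Alox5* it lay farther out, 136 bases before the start, and the GC box began 35 bases before the start. Among the genes not shown, the core began 16 bases after the start in *Ltc4s*, and 126, 149 and 247 bases before it in *Lta4h*, *Ptges* and *Ptgs2*. RefSeq windows matched 9 of the 10 genes (10 windows, as *Pla2g4a* has more than 1 start). On either strand the GAGGAA core was in a window of 8 of these 9, *Ptgs2* included and all but *Pla2g4a*, where 28.3% of 32851 windows of all genes held it. The GC box was in windows of 3 of the 9 (35.7% of all windows), the hypoxia response element core ACGTG in 1, *Ptgs2* (19.6%), an E-box CANNTG in 7 (72.3%) and TATAAA in 2 (13.6%). These are letter matches only, not shown binding sites. For *Tbxas1*, *Hpgds*, *Ptges*, *Ltc4s* and a start of *Pla2g4a*, the RefSeq start lies inside the GENCODE gene, downstream of its first annotated base. The distances given here are counted from the RefSeq start.

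Levels of the 9 genes were compared per kilobase of exon, using the union of each gene's exons in GENCODE M21. *Alox5ap*, the helper protein that presents arachidonic acid to the lipoxygenase, was the most abundant, at 3424 to 3786 signal per kilobase over the 6 libraries, above 97.5% of the 12964 genes with a length. *Hpgds*, the blood-cell synthase of prostaglandin D2, followed at 1661 to 2041 per kilobase, then *Tbxas1*, the synthase of thromboxane, at 838 to 1034, and *Lta4h*, the hydrolase that makes leukotriene B4, at 529 to 591. These 4 genes lay above the median gene (168 per kilobase), and their ranges did not overlap. *Pla2g4a*, the cytosolic phospholipase, was below the median gene at 85.5 to 123 per kilobase. *Ltc4s* (42.0 to 77.0), the synthase of leukotriene C4, and *Ptgs1* (41.7 to 52.0), the constitutive cyclooxygenase, overlapped each other. *Alox5* (12.6 to 18.0) and *Ptges* (7.78 to 16.9), the inducible prostaglandin E synthase, also overlapped and were the lowest, at the 4.10th and 2.90th percentile of all genes. The helper of the lipoxygenase was thus near the top of the range and the lipoxygenase itself near its bottom, in both diets. With the median length of a gene's protein-coding transcripts in place of the exon union, a choice made after the values were seen, all 9 genes kept their rank in ND, but *Tbxas1* (1522 to 1877) then overlapped *Hpgds* and *Alox5* (18.4 to 26.4) no longer overlapped *Ptges*.

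**Figure D2:**
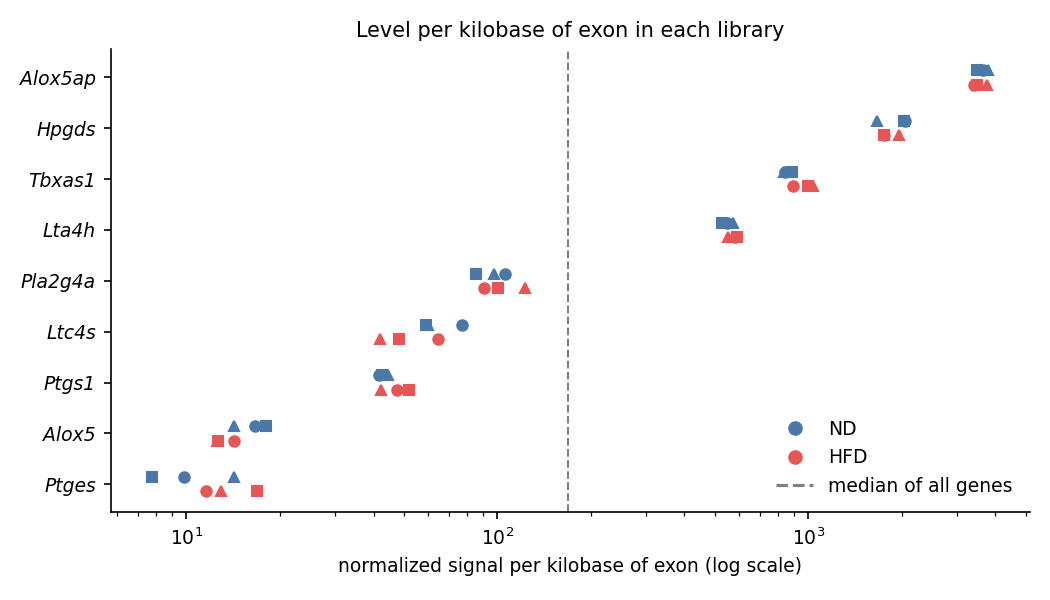
Normalized signal per kilobase of exon on a log axis for the 9 synthesis genes, 1 mark per library (blue ND, red HFD, shapes as replicate numbers). The dashed line is the median of all genes at 168. *Alox5ap*, *Hpgds*, *Tbxas1* and *Lta4h* lie to its right in every library and the other 5 genes to its left.

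At the first step, *Pla2g4a* (chromosome 1, 149829618 to 149961290 in GRCm38, minus strand) had signals of 323, 261 and 299 in ND, here and below in the order of replicates 1, 2 and 3, against 277, 307 and 375 in HFD. The diets overlapped, and HFD replicate 3 was the highest library. Between the diets the log2 fold change was 0.11 (SE 0.13, 95% interval -0.18 to 0.40, limma adjusted p 0.807). Leaving out HFD replicate 3 made it -0.0083, leaving out ND replicate 1 made it 0.18, and leaving out HFD replicate 1 made it 0.21.

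At the cyclooxygenase step, *Ptgs1* (chromosome 2, 36230426 to 36252272, plus strand) had signals of 120, 122 and 127 in ND and 136, 149 and 122 in HFD. ND libraries lay close together, and HFD replicate 3 fell among them. This gave a log2 fold change of 0.13 (SE 0.13, 95% interval -0.15 to 0.42, limma adjusted p 0.756). It was 0.063 when HFD replicate 2 was left out and 0.21 when HFD replicate 3 was.

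Of the prostanoid synthases, *Tbxas1* (chromosome 6, 38875404 to 39084585, plus strand) had the smallest p of the 9 genes. Its signals were 2604, 2756 and 2600 in ND and 2776, 3096 and 3207 in HFD. Each HFD library lay above each ND library, with HFD replicate 1 only 20.6 units above ND replicate 2. ND libraries averaged 2653 ± 88.5 and HFD libraries 3026 ± 224 (SD, n = 3 each), a 1.14-fold difference. On the log2 scale it was 0.19 (SE 0.069, 95% interval 0.032 to 0.34), with an unadjusted limma p of 0.0227 and a limma adjusted p of 0.390, so it did not pass. It was 0.17 without ND replicate 3 (limma adjusted p 0.278) and 0.21 with array weights, where the limma adjusted p was 0.0480. The other alternatives gave limma adjusted p values up to 0.934, over 14 in all (counted here and below without the replicate block). An antisense gene, *Gm42962*, overlaps 144 exon bases of *Tbxas1*. Its signal ran from 25.4 to 36.2, and the strand setting of the authors' counting is not given in the sources used here.

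*Hpgds* (chromosome 6, 65117293 to 65144908, minus strand) had signals of 7094, 7078 and 5775 in ND and 6084, 6079 and 6829 in HFD. ND replicate 3 was the lowest of the 6 libraries, and the other ND libraries were the highest. Its log2 fold change was -0.067 (SE 0.091, 95% interval -0.27 to 0.14, limma adjusted p 0.844), and it was -0.16 without ND replicate 3 (limma adjusted p 0.263) and -0.017 without ND replicate 1. Across 14 alternatives its limma adjusted p values spanned 0.147 to 0.993.

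*Ptges* (chromosome 2, 30889471 to 30929863, minus strand) was low, at 29 to 64 estimated reads per library, where counting error alone is 12.5% to 18.6%. Its signals were 35.9, 28.4 and 52.0 in ND and 42.1, 61.8 and 47.2 in HFD. ND replicate 3 lay above 2 of the 3 HFD libraries, so the diets overlapped. Its log2 fold change of 0.39 was the largest of the 9 in this direction but had a wide error (SE 0.27, 95% interval -0.21 to 1.00, limma adjusted p 0.654). It was 0.62 without ND replicate 3 (limma adjusted p 0.264) and 0.20 without ND replicate 2, with limma adjusted p values spanning 0.0983 to 0.971 across 13 alternatives.

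In the leukotriene branch, *Alox5* (chromosome 6, 116410077 to 116461178, minus strand) was also low, at 34 to 52 estimated reads per library. Its signals were 46.9, 50.8 and 40.2 in ND and 40.1, 35.7 and 35.4 in HFD. The diets did not overlap, but ND replicate 3 and HFD replicate 1 were only 0.0161 units apart, far less than the worth of 1 read. ND libraries averaged 46.0 ± 5.41 and HFD libraries 37.1 ± 2.65 (SD, n = 3 each), a log2 fold change of -0.30 (SE 0.21, 95% interval -0.76 to 0.17, limma adjusted p 0.659). Without limma's variance trend the same difference had an unadjusted limma p of 0.0280 instead of 0.182, and limma adjusted p values spanned 0.222 to 0.970 across 13 alternatives. Counting error at this depth is 13.9% to 17.2% of each value, and the mean in HFD was 0.807 times that in ND.

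*Alox5ap* (chromosome 5, 149264767 to 149288153, plus strand) was measured far more precisely, at 4315 to 5558 estimated reads per library. Its signals were 4914, 4682 and 5096 in ND and 4609, 4703 and 5048 in HFD, with the diets interleaved. Between the diets it differed by -0.033 on the log2 scale (SE 0.063) with a 95% interval of -0.18 to 0.11 (limma adjusted p 0.894). It was -0.072 when HFD replicate 3 was left out and -0.0041 when ND replicate 3 was. The antisense gene *Gm19719* overlaps 189 of its exon bases and had a level of 183 to 208.

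*Lta4h* (chromosome 10, 93453411 to 93484875, plus strand) had signals of 1112, 1074 and 1161 in ND and 1176, 1200 and 1118 in HFD. The diets overlapped, and the 6 values lay within a narrow range. This gave a log2 fold change of 0.062 (SE 0.065, 95% interval -0.084 to 0.21, limma adjusted p 0.785). It was 0.035 when ND replicate 2 was left out.

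*Ltc4s* (chromosome 11, 50236461 to 50238616, minus strand) is short and low, at 30 to 50 estimated reads per library. Its signals were 50.2, 38.5 and 39.0 in ND and 42.1, 31.5 and 27.4 in HFD. HFD replicates 2 and 3 were the lowest libraries, and HFD replicate 1 lay above 2 ND libraries. Its log2 fold change was -0.34 (SE 0.25, 95% interval -0.89 to 0.21, limma adjusted p 0.670). Leaving out HFD replicate 1 gave -0.51, and leaving out HFD replicate 3 gave -0.21. The antisense gene *Gm26542* overlaps 192 exon bases, and 10.2% of the stretches of 75 bases (the read length) in *Ltc4s* transcripts are shared with it. Since its level (32.0 to 42.3) was close to that of *Ltc4s*, the *Ltc4s* values are uncertain.

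**Figure D3:**
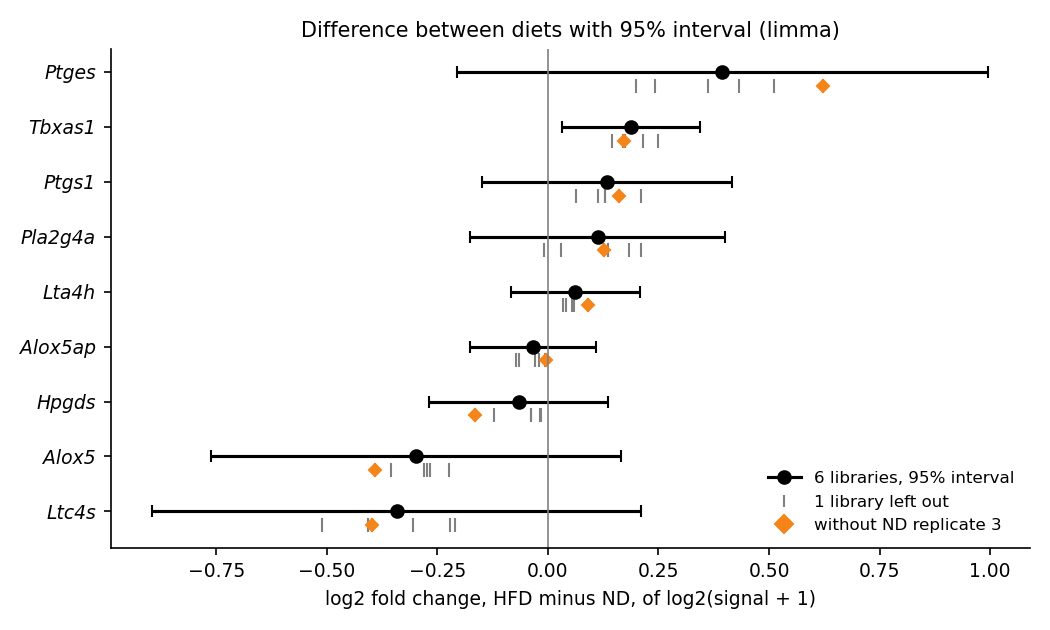
Log2 fold change, HFD minus ND, of the 9 synthesis genes with 95% intervals from limma (black), and the value with each library left out (grey ticks, orange diamond without ND replicate 3). Only the interval of *Tbxas1*, 0.032 to 0.34, lies wholly on one side of 0 before adjustment over all genes.

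Log2 ratios of signal + 1 were taken within a library, where scaling nearly cancels except in low genes, and gene length largely cancels when a ratio is compared between diets. The log2 ratio of *Ltc4s* to *Lta4h*, the branch point between leukotriene C4 and leukotriene B4, was -4.44, -4.76 and -4.86 in ND and -4.77, -5.21 and -5.30 in HFD. HFD replicate 1 fell within the ND values, and the mean difference was -0.40 (SD 0.22 in ND and 0.28 in HFD), from -0.28 when ND replicate 1 was left out to -0.57 when HFD replicate 1 was. The log2 ratio of *Alox5ap* to *Alox5* was 6.68, 6.50 and 6.95 in ND and 6.81, 7 and 7.12 in HFD, with overlapping diets. Its mean difference of 0.27 became 0.16 when ND replicate 2 was left out and 0.39 when ND replicate 3 was. For *Ptges* to *Tbxas1* the log2 ratio was -6.14, -6.55 and -5.62 in ND and -6.01, -5.62 and -6.06 in HFD, a mean difference of 0.21. Leaving out ND replicate 2 made it -0.018, leaving out HFD replicate 2 made it 0.071, and leaving out ND replicate 3 made it 0.45. A pseudocount of 10 in place of 1 made it 0.14. The ratio of the cyclooxygenases was not analysed here.

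The rest of the pathway was taken from lists of phospholipases and arachidonate handling, other terminal synthases and lipoxygenases, inactivating enzymes, transporters and receptors. Of 75 listed genes, 40 matched a row, and 0 of the 40 passed the limma adjusted p of 0.05. At an unadjusted p under 0.05 there were 12 of 40, 8 higher and 4 lower in HFD, against 5.4% of all genes higher and 5.18% lower. This count changed with the fit, as did the share of all genes. Leaving out ND replicate 1 made the count 5 of 40 (5.29% of all genes), and leaving out ND replicate 2 made it 6 (8.01%). It was 7 without HFD replicate 2 (5.49%) and 8 without HFD replicate 3 (9.17%). It was 9 without HFD replicate 1 (12.6%) and 11 without ND replicate 3 (17.5%). Without limma's variance trend it was 7 (9.5%), and with array weights 20 (27.6%). The 5 left without ND replicate 1, *Abcc1*, *Pla2g7*, *Ptger2*, *Ptger3* and *Ptgr1*, also had an unadjusted p under 0.05 with each other library left out. The share of all genes that did so was not counted, and these fits have most of their libraries in common. The diets did not overlap for 10 of 40, 7 higher and 3 lower, against 7.44% and 7.07% of all genes. The median log2 fold change of the 40 was 0.055.

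**Figure D4:**
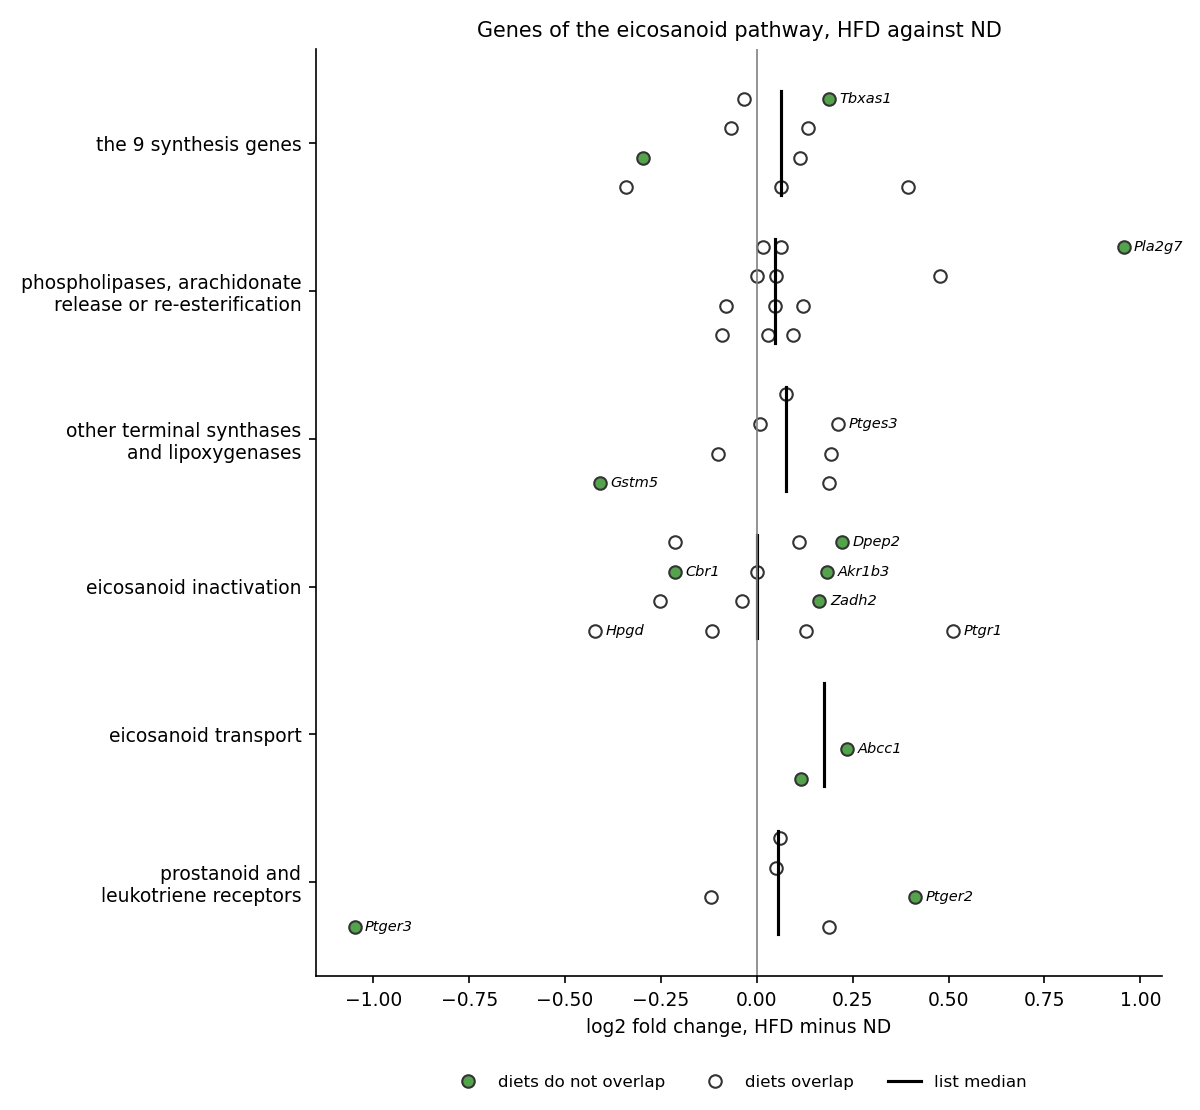
Log2 fold change, HFD minus ND, of the 9 synthesis genes and of 40 other eicosanoid genes by list. Filled marks are genes whose diets do not overlap, names mark an unadjusted p under 0.05, and the vertical black bar is the list median; *Pla2g7* (0.96) and *Ptger3* (-1.05) lie farthest from 0.

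Among 12 of 21 listed genes of phospholipid and arachidonate handling, 1 had an unadjusted p under 0.05, no larger a share than the 10.6% of all genes. It was *Pla2g7*, the secreted enzyme that inactivates platelet-activating factor and is not itself a main source of arachidonic acid. Its signals were 1513, 2111 and 2459 in ND and 3512, 4610 and 3550 in HFD. Each HFD library was well above each ND library, and among ND libraries replicate 3 was the nearest to HFD. The log2 fold change was 0.96 (SE 0.17, 95% interval 0.59 to 1.33, limma adjusted p 0.142). Without ND replicate 3 it was 1.11 (limma adjusted p 0.0159), with array weights 1.26 (limma adjusted p 0.00443), with limma adjusted p values up to 0.760 among 14 alternatives. The antisense gene *1700071M16Rik*, which overlaps 140 of its exon bases, differed in the same direction (log2 fold change 0.75), and without a stated strand setting their reads cannot be told apart there. *Mgll*, the lipase that frees arachidonic acid from its glycerol ester, was low and scattered (log2 fold change 0.48, SE 0.29, 0.19 when HFD replicate 2 was left out and 0.74 when HFD replicate 1 was, and 0.93 with array weights, limma adjusted p 0.0559, up to 0.975 among 13 alternatives). *Acsl4*, which activates arachidonic acid for return to membranes, had a log2 fold change of 0.093 (SE 0.067), and the lysosomal phospholipase *Pla2g15* 0.064 (SE 0.081). Leaving out single libraries gave 0.043 (HFD replicate 3) to 0.12 (ND replicate 3) for *Acsl4*, and 0.0086 (HFD replicate 2) to 0.15 (HFD replicate 3) for *Pla2g15*.

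Among other terminal synthases and partners, 7 of 17 listed genes matched. Of the 7, 2 had an unadjusted p under 0.05, against 10.6% of all genes. The count was 0 without ND replicate 1 (5.29% of all genes), ND replicate 2 (8.01%) or HFD replicate 2 (5.49%). It was 1 without ND replicate 3 (17.5%) or HFD replicate 1 (12.6%), and 2 without HFD replicate 3 (9.17%). Without limma's variance trend it was 1 (9.5%), and with array weights 5 (27.6%). *Ptges3*, a co-chaperone with prostaglandin E synthase activity, had signals of 2127, 2198 and 2535 in ND and 2479, 2685 and 2766 in HFD. ND replicate 3 lay above HFD replicate 1, and the log2 fold change was 0.21 (SE 0.080, limma adjusted p 0.396). With array weights it was 0.27 (limma adjusted p 0.0250; up to 0.947 among 14 alternatives). Of its stretches of 75 bases 18.5% are shared with copies such as *Ptges3-ps*, so its level is uncertain. *Gstm5*, a glutathione transferase, averaged 65.3 ± 2.89 for ND and 49.0 ± 3.30 for HFD (SD, n = 3 each) without overlap (log2 fold change -0.41, SE 0.17, limma adjusted p 0.437). *Ptges2* (0.19, SE 0.12) and *Mgst1* (0.19, SE 0.12) had log2 fold changes above 0 with overlapping diets. That of *Mgst1* was 0.075 when ND replicate 1 was left out and 0.32 when HFD replicate 3 was. *Cotl1*, which encodes a partner protein of the lipoxygenase, was abundant, with a mean signal of 9727 in ND and 10270 in HFD (log2 fold change 0.075, SE 0.079). Its difference was 0.00078 when HFD replicate 2 was left out, 0.14 when HFD replicate 3 was, and 0.017 with quantile normalization.

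Of the enzymes that inactivate eicosanoids, 13 of 19 matched. Their median log2 fold change was 0.00093, but it ran from -0.052 to 0.094 as single libraries were left out and was 0.11 among genes with a mean of at least 100. Of the 13, 6 had an unadjusted p under 0.05, against 10.6% of all genes; 4 were higher in HFD (5.4% of all genes) and 2 lower (5.18%). The count of 6 became 1 when ND replicate 1 was left out (5.29% of all genes). It became 2 without ND replicate 2 (8.01%) or HFD replicate 3 (9.17%), and 3 without HFD replicate 1 (12.6%) or HFD replicate 2 (5.49%). Without ND replicate 3 it was 5 (17.5%). Without limma's variance trend it was 2 (9.5%), and with array weights 6 (27.6%). *Hpgd*, the dehydrogenase that begins prostaglandin breakdown, had signals of 453, 432 and 317 in ND and 373, 240 and 287 in HFD. ND replicate 3 lay below HFD replicate 1, and the log2 fold change was -0.42 (SE 0.18, limma adjusted p 0.437). It was -0.27 when HFD replicate 2 was left out and -0.68 with array weights (limma adjusted p 0.0241), and 14 alternatives gave limma adjusted p values up to 0.956. *Ptgr1*, a reductase of prostaglandins and leukotriene B4, had signals of 590, 600 and 861 in ND and 831, 1081 and 987 in HFD. ND replicate 3 again lay beyond HFD replicate 1, and the log2 fold change was 0.51 (SE 0.15, limma adjusted p 0.297). Without ND replicate 3 that of *Ptgr1* was 0.69 (limma adjusted p 0.0201), and 14 alternatives spanned limma adjusted p values of 0.00884 to 0.886. *Dpep2*, a dipeptidase that trims leukotriene D4, averaged 4163 ± 365 for ND and 4850 ± 228 for HFD (SD, n = 3 each), without overlap (log2 fold change 0.22, SE 0.075, limma adjusted p 0.354). With array weights the limma adjusted p was 0.0323, and it reached 0.932 among 14 alternatives. *Ptgr2* had a log2 fold change of 0.11 (SE 0.081), with 0.055 when ND replicate 1 was left out and 0.19 when ND replicate 2 was, and as 29.4% of its 75-base stretches are shared with an antisense gene its level is uncertain. Smaller shares of such stretches touch *Ptger4* (13.2%), *Dpep2* (9.97%), *Gstm5* (7.47%) and *Ptger2* (3.42%). The other genes of this list at an unadjusted p under 0.05, named after their values were seen, were *Zadh2* (log2 fold change 0.16), *Akr1b3* (0.18) and *Cbr1* (-0.21).

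Of the transporters 2 of 4 matched, and the diets overlapped for neither, where 14.5% of all genes did not overlap (7.44% higher in HFD). *Abcc1*, which exports leukotriene C4, had signals of 6081, 6244 and 6768 in ND and 7060, 7521 and 7904 in HFD. Every HFD library exceeded every ND library, and the log2 fold change was 0.24 (SE 0.069, 95% interval 0.082 to 0.39, limma adjusted p 0.297). With array weights it was 0.27 (limma adjusted p 0.0171), with limma adjusted p values up to 0.884 among 14 alternatives. *Abcc4*, a prostaglandin exporter, averaged 727 ± 10.1 for ND and 789 ± 38.3 for HFD (SD, n = 3 each; log2 fold change 0.12, SE 0.069, limma adjusted p 0.599).

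Of the receptors 6 of 14 matched, and 2 of the 6 had an unadjusted p under 0.05, against 10.6% of all genes. *Ptger3*, an inhibitory receptor for prostaglandin E2, had signals of 63.9, 64.5 and 44.9 in ND and 32.3, 23.2 and 26.3 in HFD. All HFD libraries were below all ND libraries, with ND replicate 3 and HFD replicate 1 nearest to each other. It was as low as 24 to 66 estimated reads per library, where counting error alone is 12.3% to 20.4%. The log2 fold change was -1.05 (SE 0.24, 95% interval -1.59 to -0.51, limma adjusted p 0.230). It was -1.22 without ND replicate 3 (limma adjusted p 0.0511) and -1.26 with array weights (limma adjusted p 0.00937), with limma adjusted p values up to 0.860 among 13 alternatives. *Ptger2*, a receptor for the same prostaglandin that raises cyclic AMP, had signals of 230, 262 and 235 in ND and 310, 387 and 280 in HFD, without overlap. Its log2 fold change was 0.41 (SE 0.13, 95% interval 0.13 to 0.70, limma adjusted p 0.318). With array weights it was 0.58 (limma adjusted p 0.0175; up to 0.891 among 14 alternatives). *Ptger4*, the other receptor of that kind, had a log2 fold change of 0.19 (SE 0.12) with overlapping diets. Leaving out HFD replicate 1 made it 0.11, and leaving out ND replicate 3 made it 0.28. *Ptgir*, the prostacyclin receptor, had 0.049 (SE 0.098), and *Cysltr1*, a receptor for cysteinyl leukotrienes, 0.061 (SE 0.077). For *Cysltr1* it was 0.0046 when ND replicate 3 was left out and 0.12 when ND replicate 2 was.

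**Figure D5:**
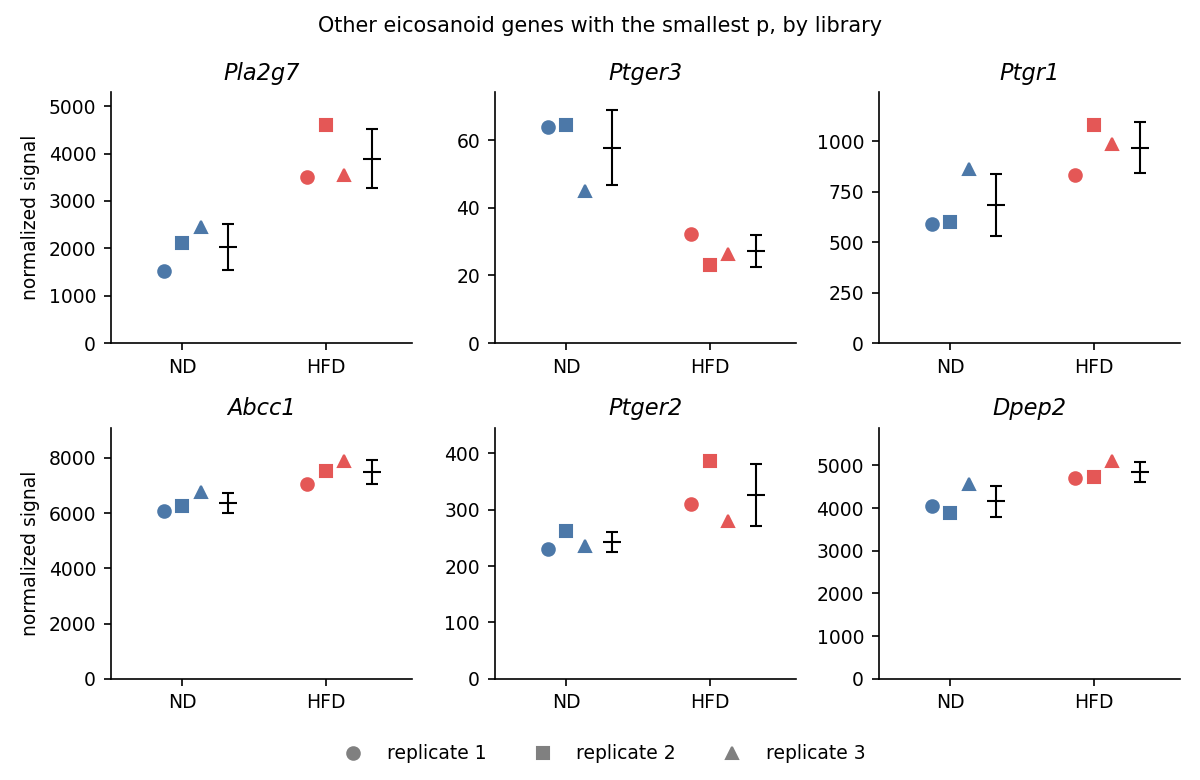
Normalized signal (linear axes from 0) of the 6 other eicosanoid genes with the smallest p, by library (blue ND, red HFD, shapes as replicate numbers, black bar mean ± SD of 3 libraries). The diets of *Ptgr1* overlap, since ND replicate 3 (861) lies above HFD replicate 1 (831), and those of the other 5 do not.

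Several of these genes are also known from mast cells, platelets or neutrophils, so markers of those cells were read in the same libraries. Of 10 mast cell and basophil markers only *Kit* matched, at 117 to 226 in ND and 72.4 to 104 in HFD, without overlap and in the direction of *Ltc4s*. Of 8 platelet markers 4 matched, with a summed signal of 1245 to 1944 in ND and 1982 to 2482 in HFD, also without overlap and in the direction of *Tbxas1*. Within that list *Pf4* averaged 944 in ND and 1604 in HFD (log2 fold change 0.83), so the higher sum in HFD came mainly from this gene. *Itgb3* (-0.25) and *Treml1* (-0.56) were lower in HFD without overlap, and *Gp1ba* overlapped. Of 10 neutrophil markers 5 matched, with sums of 1269 to 1993 in ND and 1276 to 2398 in HFD. The part of these cells in the results was not tested, and in such bulk libraries fewer cells of a type and less RNA per cell cannot be told apart. Eosinophil *Ccr3* (482 to 886 in ND, 919 to 1072 in HFD), B cell *Ighm* (1889 to 3061 and 1876 to 2075), T cell *Cd4* (202 to 356 and 98.1 to 230) and 4 of 8 stromal and endothelial markers (sums of 208 to 609 and 89.0 to 409) were the other matches. None of the 8 dendritic cell or 6 erythroid markers matched.

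The genes of the table most like *Ptgs1* and *Alox5* over the 6 libraries were sought among 10788 genes with a mean of at least 100, by the root mean square difference of centred log2 values. For *Ptgs1*, whose log2 values had an SD of 0.122, they were *Atp5h* (0.029), *Pfkfb4* (0.034) and *Tpst2* (0.034). For *Alox5*, with an SD of 0.205, they were *Gm6652* (0.024), *Gm49342* (0.028) and *Gm8615* (0.038). The 3 genes like *Alox5* were, as it was, highest in ND replicates 1 and 2, which follows from their selection by likeness. The search covers many genes over few libraries, so close matches occur easily.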

How the data were processed

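The authors deposited 1 table of normalized signal per gene, with a column for each of 6 libraries. Per the submitters' processing notes STAR and Partek were used with build mm10; their versions, roles, the annotation and any filter are not given in the sources used here. From the values, 57.0% to 58.4% of signals between 5 and 1000 are whole multiples of 1 step per library (within 0.02 of a read), so the deposited signal is estimated gene counts divided by a size factor. As whole reads could not be recovered for the rest, no count test was run. The step gave the estimated reads. Columns marked NC were taken as ND, and 0 columns were left unmatched.

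Each gene's log2(signal + 1) was compared by limma's two-sided moderated test, allowing a trend of variance with mean (limma version 3.58.1, R version 4.3.3), and adjusted by Benjamini-Hochberg over 13232 genes. No value was filtered; the lowest gene mean is 3.36. The genes and lists were chosen with earlier results of these data known. Named were all matched synthesis genes and, per list, the 3 genes with the smallest p and the 2 with the highest mean. Alternatives were other pseudocounts, filters and scalings, limma without trend, array weights, each library left out and a replicate block. Data were simulated from these means and limma's fitted variance trend with 200 of 13232 genes changed (10 simulations). There limma called 1.6% of changes of 0.2 on the log2 scale, 44.2% of 0.5, 84.2% of 1 and 97% of 2. On average 7.4 unchanged genes were called. The simulated libraries varied independently, with none set apart as ND replicate 3 was, so these rates may not hold for the real libraries. Intervals and counting errors cover spread between libraries and counting only, since reads carried no molecular identifiers. Positions are from GENCODE M21 (GRCm38).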

Additional observations from a re-analysis of the deposited data

How the results depend on the processing

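Of 132 values of the 9 synthesis genes over 15 alternatives, 130 kept their direction and side of the threshold. *Tbxas1* came to pass with array weights (0.21), and *Pla2g4a* reversed without HFD replicate 3 (-0.0083). Of 297 values of 20 other named genes 285 did so, 11 came to pass, and *Ptgir* reversed without ND replicate 2 (-0.052; up to 0.13 without ND replicate 3). Called synthesis genes went from 0 to 1 with array weights and stayed 0 in all other settings; at an unadjusted p the count of 1 went to 3 with array weights and ran from 0 (without ND replicate 1, HFD replicate 2 or HFD replicate 3) to 3 (without ND replicate 3) across leave-one-out fits. Over all genes, called genes went from 0 to 1133 with array weights and 31 with the replicate block, and ran from 0 to 233 (without ND replicate 3) across leave-one-out fits; at an unadjusted p 1401 went to 3646 with array weights and ran from 700 to 2309. The cause was not tested. The replicate block called no synthesis gene; *Pla2g7* passed it (0.96, limma adjusted p 0.0372). The residual correlations between libraries with the same replicate number were 0.089, -0.11 and 0.027. With 3 libraries per diet these cannot exclude a pairing. *Ptges*, *Alox5* and *Ltc4s* have no value at a minimum mean of 100, and DESeq2 was left out because it needs counts (not run). The median of the 9 genes (0.062) ran from -0.0083 to 0.091 across leave-one-out fits. Low depth limits *Ptges*, *Alox5*, *Ltc4s* and *Ptger3*.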
